A study of Homo sapiens with 12 samples.

Results

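The 46 genes described here encode the protein folding, quality control and translocation machinery of the endoplasmic reticulum (ER). They were listed by symbol and divided by textbook function into 15 chaperones and co-chaperones, 11 disulfide isomerases and oxidases, 11 genes of ER-associated degradation (ERAD) and 9 genes of protein translocation, among which *SEC24D* is a coat gene of vesicles that leave the ER. All 46 were among the 43236 genes of the count files, and all were among the 15979 genes with enough counts to be tested. Their transcripts were measured in MNNG/HOS cells (HOS-MNNG in the sample labels), a human osteosarcoma line derived from HOS by chemical transformation, so 1 cell line stands behind every value. Cells received the solvent DMSO or 300 nM NXP800, an oral small molecule first developed against the heat shock factor HSF1, and polyA RNA was taken after 6 h or 24 h. Each of the 4 groups has 3 libraries, and since nothing in the labels says that they came from separate cultures, p-values measure the spread between these libraries. Below, levels are in CPM, gene counts scaled to the same TMM-adjusted total in every library. A gene rose or fell where the quasi-likelihood test of edgeR, adjusted by the Benjamini-Hochberg method across all tested genes, gave an adjusted p below 0.05.

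Most secreted and membrane proteins enter the ER through the SEC61 channel while they are being made. In the lumen, HSP70 and HSP90 type chaperones and lectins hold them during folding, and protein disulfide isomerases set their disulfide bonds. Chains that do not fold are recognised, moved back to the cytosol and degraded, which is the work of ERAD. When unfolded chains build up, the sensors IRE1α, PERK and ATF6 start the unfolded protein response (UPR), whose factors ATF6 and XBP1 bind ER stress response elements in front of many chaperone genes.

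NXP800 did not move these genes as a block. At 6 h, 5 of 46 rose and 20 fell, against 25.0% and 27.8% of all tested genes, and at 24 h 16 rose and 12 fell, against 27.5% and 28.6%. The median log2 fold change of the 46 genes was -0.14 at 6 h and 0.07 at 24 h, and that of all tested genes was -0.05 and -0.003. The 24 h median was 0.037 without DMSO replicate 1, 0.035 without DMSO replicate 2, 0.11 without DMSO replicate 3 and 0.10 without NXP800 replicate 2 of 24 h. The HSP70 *HSPA5*, its partner *DNAJB9*, and the ERAD genes *HERPUD1* and *SEL1L* rose at both times. The abundant chaperones *HSP90B1* and *CALR* and most disulfide isomerases fell at both times, 12 genes in all. Between these, *TXNDC11*, *SEC61A1*, *SSR1* and *SSR3* fell at 6 h and rose at 24 h. A further 8 genes rose at 24 h after a 6 h change that did not pass the test. Of the others, 4 fell and *DERL1* rose at 6 h without passing at 24 h, and 13 passed at neither time. These patterns over both times were not counted for all tested genes, so whether they are unusual is not known. With the replicate number as a block together with GC content and transcript length offsets, 8 rose and 28 fell at 6 h: *HYOU1* (0.21), *SIL1* (0.17) and *EDEM1* (0.37) then also rose, and *CANX* (-0.21), *DNAJB11* (-0.15), *DNAJC10* (-0.15), *UGGT1* (-0.19), *ERP44* (-0.24), *ERLEC1* (-0.24), *SEC61G* (-0.30) and *SEC62* (-0.13) also fell (adjusted p from 3.55e-05 to 0.0455). These settings also called more of all tested genes at 6 h, 4849 higher and 5055 lower, against 4000 and 4435 in the main fit. In bulk RNA, fewer cells with a transcript and less of it per cell cannot be told apart.

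**Figure D1:**
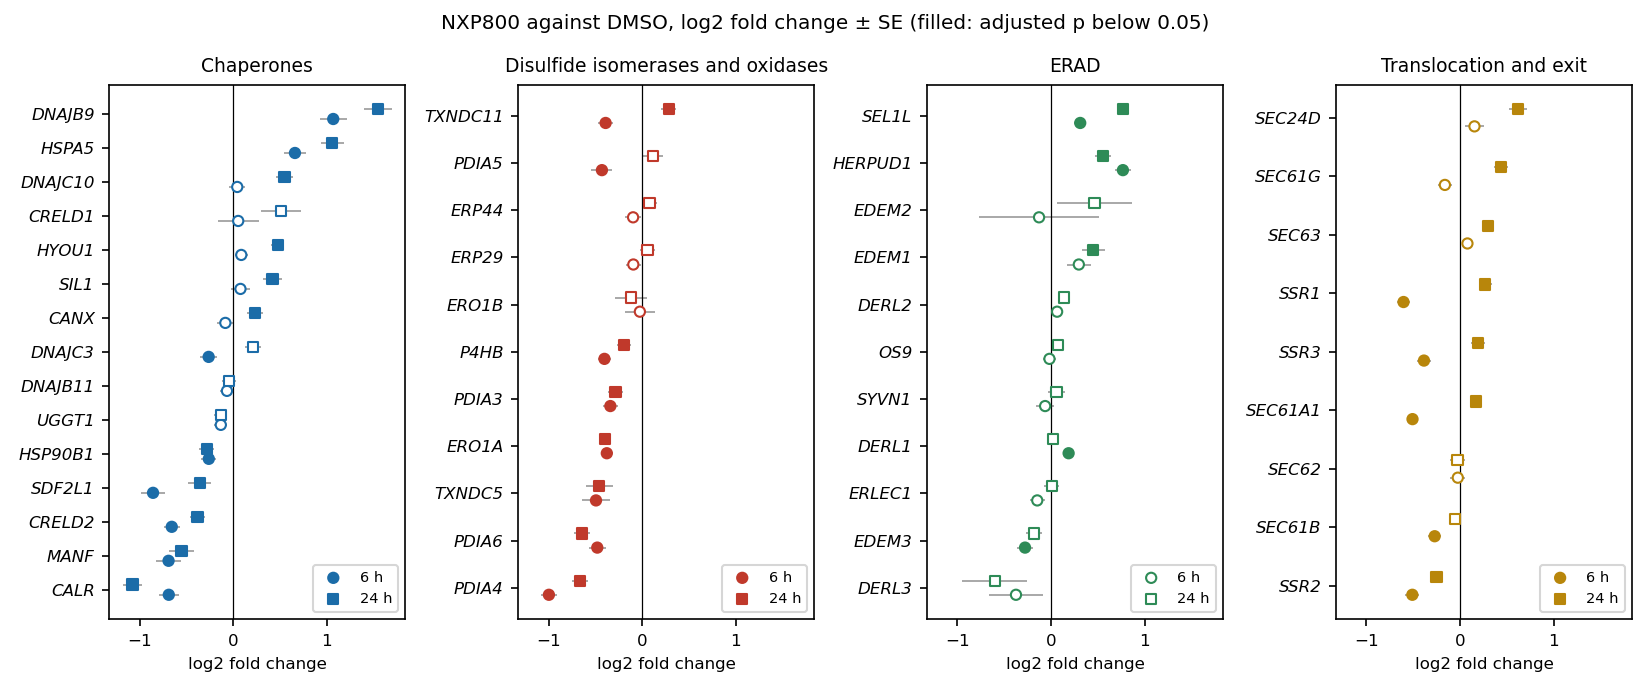
Log2 fold change of NXP800 against DMSO (x axis) of each of the 46 genes (y axis) in 4 panels by function, as circles at 6 h and squares at 24 h with bars of 1 standard error; filled symbols have an adjusted p below 0.05. The values run from -0.996 (*PDIA4*) to 1.07 (*DNAJB9*) at 6 h and from -1.08 (*CALR*) to 1.55 (*DNAJB9*) at 24 h.

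Libraries held 30810614 to 31947656 counts on genes. Reads on no annotated gene made up 6.66 to 8.14% of the 6 h libraries and 2.73 to 3.67% of the 24 h libraries, and multiply aligned reads 1.86 to 1.99% and 2.96 to 3.37%, so levels are compared with DMSO within a time. The part of these shares in the results was not tested. The DMSO 24 h library of replicate 3 had the highest sum over the 46 genes, 11840 CPM against 9924 and 10220 in the other DMSO 24 h libraries, and several 24 h calls below depend on it. Markers of mesenchyme and bone were present with *VIM* at 4275 to 4322 CPM, *COL1A1* at 202 to 259 CPM, *SPARC* at 480.2 to 615 CPM and *RUNX2* at 20.8 to 24.7 CPM in DMSO 6 h, while *COL1A2* and *ALPL* reached at most 0.378 and 0.222 CPM in any library. The summed level of these 6 markers was 5030 to 5220 CPM with DMSO and 4190 to 4330 CPM with NXP800 at 6 h. By 24 h it was 5920 to 6770 CPM with DMSO and 3800 to 4630 CPM with NXP800. *VIM* held most of this sum, and its members moved differently. *RUNX2* rose, by a log2 value of 0.71 ± 0.11 early and 0.36 ± 0.11 late. *COL1A1* and *SPARC* fell both early and late, *SPARC* to 0.578 and then 0.247 of its DMSO level. *VIM* fell late (-0.48 ± 0.092), and its early value of -0.19 ± 0.092 did not pass. *COL1A2* and *ALPL* were not among the tested genes. Of the 8 markers of other cell types, the epithelial *EPCAM* was at 5.69 to 5.87 CPM with DMSO and 10.1 to 10.2 CPM with NXP800 at 24 h, and the other 7 reached at most 0.914 CPM (*PECAM1*) in any library. The part of these marker changes in the results was not tested.

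Upstream sequence was looked up because UPR factors are known to act through it. RefSeq promoter windows (GRCh38.p14) were found for 42 of the 46 genes, and the 250 bases before each annotated start were searched on both strands. The ER stress response element ERSE, CCAAT and CCACG with 9 bases between them, was found in 7 of the 42 genes (16.7%) and in 0.0916% of 27305 genes with a window. ERSE-II, ATTGG and CCACG with 1 base between them, was found in 3 (7.14%, against 0.0659%). These were *HSPA5*, *HSP90B1*, *CALR*, *CANX*, *CRELD2*, *PDIA6* and *ERO1B* for ERSE, in an alternative downstream window for *CANX* and *PDIA6*, and *HYOU1*, *SDF2L1* and *HERPUD1* for ERSE-II. The UPR element core TGACGTG was found in 5 (11.9%, against 2.05%), namely *HYOU1*, *DNAJC10*, *TXNDC5*, *SEC62* and *SSR3*. In *TXNDC5* and *SSR3* it lies in an alternative downstream window, and in *HYOU1* it overlaps an ERSE-II. *HERPUD1* alone held the amino acid response element core TGATGNAA (2.38%, against 3.89%), and the heat shock element GAA, 2 bases, TTC, 2 bases, GAA was found in 0 of 42 (against 0.557%). Over the 12235 tested genes with a window, the shares were 0.139% for ERSE, 0.131% for ERSE-II and 2.85% for the UPR element core. They were 2.5% for the amino acid response element core, near the 2.38% here, and 0.433% for the heat shock element. Matches describe letters in these windows and no binding. ER stress elements are already known from genes of this kind, which were listed by function. Shares above those of all genes are therefore no independent result. Capitals below mark ERSE, ERSE-II and, in *HYOU1* and *HERPUD1*, also the other cores, each read 5′ to 3′ on the gene's strand from 10 bases before the first match to the last base before the start. The sequences shown are of carriers that rose (*HSPA5*, *HERPUD1* and, at 24 h, *HYOU1*) and of carriers that fell (*HSP90B1*, *CALR*, *SDF2L1* and *CRELD2*).
HSPA5 (chr9:125241344-125241419, minus strand): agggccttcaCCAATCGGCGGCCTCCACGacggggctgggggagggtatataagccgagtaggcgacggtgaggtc
HERPUD1 (chr16:56931956-56932141, plus strand): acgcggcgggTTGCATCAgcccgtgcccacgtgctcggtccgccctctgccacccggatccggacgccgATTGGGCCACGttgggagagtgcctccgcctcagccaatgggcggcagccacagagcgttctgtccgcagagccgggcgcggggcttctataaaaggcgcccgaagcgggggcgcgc
HYOU1 (chr11:119057206-119057403, minus strand): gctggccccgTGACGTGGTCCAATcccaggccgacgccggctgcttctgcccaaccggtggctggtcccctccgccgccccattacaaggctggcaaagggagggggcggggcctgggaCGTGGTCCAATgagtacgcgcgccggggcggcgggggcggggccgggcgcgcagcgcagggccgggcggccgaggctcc
HSP90B1 (chr12:103930206-103930409, plus strand): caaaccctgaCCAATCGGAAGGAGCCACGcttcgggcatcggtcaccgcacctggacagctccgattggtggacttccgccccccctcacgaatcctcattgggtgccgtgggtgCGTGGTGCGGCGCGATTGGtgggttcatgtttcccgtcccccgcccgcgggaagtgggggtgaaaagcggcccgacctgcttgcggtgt
CALR (chr19:12938374-12938608, plus strand): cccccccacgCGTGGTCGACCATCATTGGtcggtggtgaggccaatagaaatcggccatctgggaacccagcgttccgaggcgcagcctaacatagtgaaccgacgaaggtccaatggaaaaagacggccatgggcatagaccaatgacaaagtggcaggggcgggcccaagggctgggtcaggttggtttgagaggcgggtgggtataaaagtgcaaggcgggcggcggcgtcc
SDF2L1 (chr22:21642104-21642301, plus strand): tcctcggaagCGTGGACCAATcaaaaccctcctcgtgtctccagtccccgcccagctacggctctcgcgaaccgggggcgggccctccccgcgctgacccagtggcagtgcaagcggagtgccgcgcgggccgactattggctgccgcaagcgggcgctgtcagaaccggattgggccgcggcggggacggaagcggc
CRELD2 (chr22:49918544-49918633, plus strand): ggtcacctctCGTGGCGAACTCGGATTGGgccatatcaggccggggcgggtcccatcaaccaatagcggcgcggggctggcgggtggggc
The same elements were found before genes that rose and genes that fell. The ERSE lay 66 to 48 bases before the start of *HSPA5*, which rose, and 80 to 62 bases before that of *CRELD2*, which fell. *HSP90B1* held 2 matches and *HYOU1* 2 matches of ERSE-II.

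**Figure D2:**
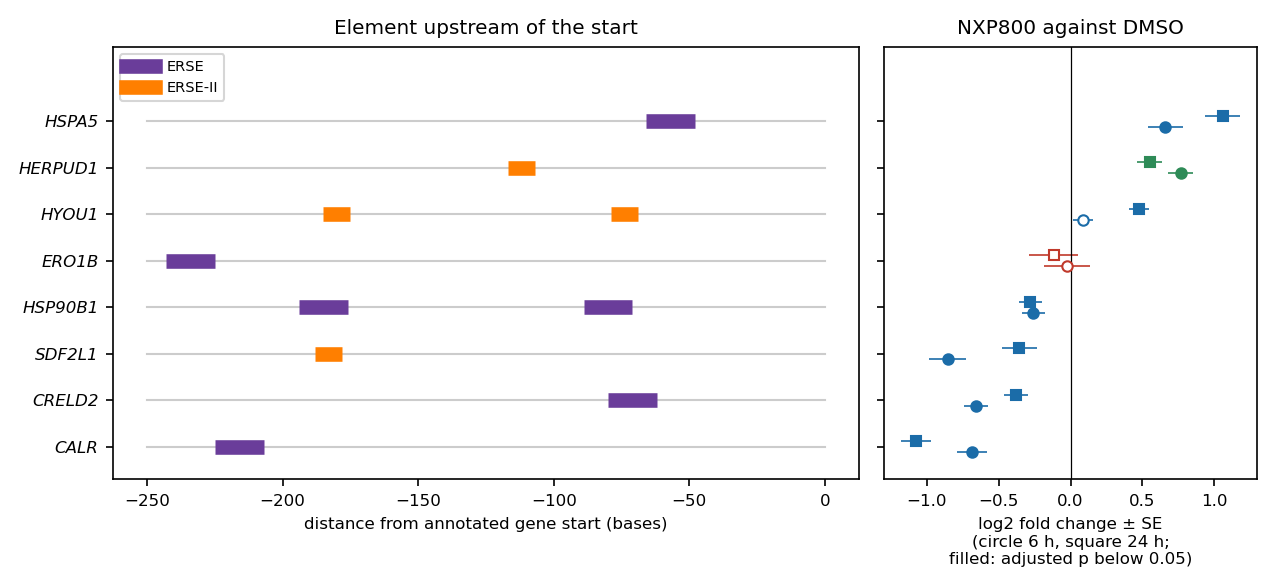
Left, position of ERSE and ERSE-II (coloured blocks) relative to the annotated start (x axis, bases; start at 0) of the 8 genes with a match in the most upstream window; right, their log2 fold change at 6 h (circles) and 24 h (squares) with bars of 1 standard error. Carriers lie on both sides of 0, from *HSPA5* at 1.06 to *CALR* at -1.08 at 24 h.

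Among the chaperones, 2 of 15 rose and 6 fell at 6 h, and 6 rose and 5 fell at 24 h, with medians of -0.08 and 0.21. As shares, 13.3% rose and 40% fell at 6 h, against 25.0% and 27.8% of all tested genes. At 24 h 40% rose and 33.3% fell, against 27.5% and 28.6%, so the share of falls lies near that of all genes. With the block plus offsets 4 rose and 10 fell at 6 h, where 4849 and 5055 of all 15979 tested genes did. Leaving out 1 library gave medians from -0.13 (without NXP800 6 h replicate 2) to -0.053 (without NXP800 24 h replicate 2) at 6 h, and from 0.14 (without DMSO replicate 1) to 0.32 (without DMSO replicate 3) at 24 h. *HSPA5* (chr9:125234853-125241343) encodes BiP, the HSP70 of the ER lumen. It was at 683, 632 and 614 CPM in the DMSO and 1013, 1091 and 942 CPM in the NXP800 libraries at 6 h, and at 695, 786 and 1045 CPM and 1862, 1869 and 1526 CPM at 24 h. Every NXP800 library lay above the DMSO libraries of its time. It rose by 0.66 ± 0.12 (log2, SE) at 6 h and 1.06 ± 0.12 at 24 h, that is 1.58-fold and 2.08-fold (adjusted p = 0.00026 and 1.97e-06). *DNAJB9* (chr7:108569874-108574850) encodes ERdj4, a J-domain protein that acts on BiP and is a known XBP1 target, and it changed most of the 46 genes. Its level was 10.04, 12.2 and 11.5 CPM with DMSO and 19.5, 25.5 and 25.9 CPM with NXP800 at 6 h, and 8.13, 8.54 and 12.4 CPM and 28.1, 30.6 and 26.2 CPM at 24 h. The groups did not overlap at either time, and the log2 fold change was 1.07 ± 0.14 and 1.55 ± 0.15 (adjusted p = 1.25e-05 and 2.18e-07).

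Of other genes that assist BiP, *DNAJC10*, *HYOU1* and *SIL1* rose at 24 h without passing at 6 h. With the block plus offsets, *HYOU1* (0.21) and *SIL1* (0.17) rose at 6 h as well, and *DNAJC10* fell (-0.15). *DNAJB11*, *SDF2L1* and *MANF*, described below, rose at neither time. The J-domain reductase gene *DNAJC10* (chr2:182716257-182794464) was at 107, 121 and 104 CPM with DMSO and 102, 123 and 116 CPM with NXP800 at 6 h, and at 84.98, 80.3 and 98.9 and 123, 134 and 129 CPM at 24 h. The groups overlapped at 6 h and were apart at 24 h, where it rose by 0.55 ± 0.087 on the log2 scale (adjusted p = 5.21e-05), or 0.26 with the block plus GC and length offsets. The large HSP70 relative and nucleotide exchange factor gene *HYOU1* (chr11:119044188-119057205) was at 449, 402 and 417 CPM with DMSO and 434, 466 and 446 CPM with NXP800 at 6 h, again overlapping, and at 425, 442 and 495 and 631, 663 and 599 CPM at 24 h, apart. Its 6 h log2 value of 0.086 ± 0.071 did not pass, and at 24 h it rose by 0.47 ± 0.071 (adjusted p = 0.33 and 3.13e-05). The other exchange factor gene, *SIL1*, rose by 0.42 ± 0.10 at 24 h (adjusted p = 0.00202) after 0.077 ± 0.10 at 6 h. *DNAJC3* (chr13:95677139-95794988), whose product P58IPK is a co-chaperone of BiP, was at 57.00, 54.9 and 49.3 CPM with DMSO and 43.4, 45.7 and 45.2 CPM with NXP800 at 6 h, and at 44.7, 46.03 and 57.8 and 56.3, 60.1 and 55.4 CPM at 24 h. It fell by 0.26 ± 0.088 at 6 h (adjusted p = 0.0197), a call lost without DMSO replicate 1 (-0.22), DMSO replicate 2 (-0.25) or NXP800 replicate 1 (-0.24) of 6 h. Its 24 h value of 0.21 ± 0.088 missed the threshold (adjusted p = 0.0524, and 0.0149 in the fit blocked by replicate number).

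A second set of chaperones fell. *CALR* (chr19:12938609-12944489) encodes calreticulin, the soluble lectin chaperone and calcium store protein. It was at 972, 1030.0 and 868 CPM with DMSO and 592, 654 and 536 CPM with NXP800 at 6 h, and at 1004, 1140.0 and 1308 CPM and 534, 498 and 606 CPM at 24 h, with all NXP800 libraries below all DMSO libraries. It fell by 0.69 ± 0.10 and 1.08 ± 0.10 on the log2 scale, to 0.621 and 0.475 of the DMSO level (adjusted p = 4.02e-05 and 3.06e-07). *CANX*, the membrane-bound lectin of the same cycle, had a log2 value of -0.084 ± 0.087 at 6 h, called a fall (-0.21, adjusted p = 0.00178) with the block plus offsets alone, and a rise of 0.23 ± 0.087 at 24 h (adjusted p = 0.434 and 0.0312). That rise was lost without DMSO replicate 1 (0.19), DMSO replicate 2 (0.19) or NXP800 replicate 3 (0.18) of 24 h, and was 0.13 with the block plus offsets. *HSP90B1*, the ER HSP90 (GRP94), fell by 0.26 ± 0.080 and 0.28 ± 0.080 (adjusted p = 0.0119 and 0.00693), the first lost without DMSO 6 h replicate 1 (-0.22, adjusted p = 0.0598).

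Small stress-induced factors of the lumen were among those that fell. *SDF2L1* (chr22:21642302-21644299), a partner of ER J-domain proteins, was at 19.99, 19.8 and 17.9 CPM with DMSO and 9.95, 11.7 and 10.3 CPM with NXP800 at 6 h, and at 26.3, 32.1 and 41.2 and 26.5, 24.2 and 27.03 CPM at 24 h. The groups were apart at 6 h, with a fall of 0.86 ± 0.13 (adjusted p = 4.55e-05), and overlapped at 24 h, with a fall of 0.36 ± 0.12 (adjusted p = 0.021). The 24 h call was lost without DMSO replicate 3 (-0.17) or NXP800 replicate 2 (-0.28) of 24 h, with scaling by library size only (-0.27), with only the 24 h libraries (-0.34), and with the block plus GC and length offsets (-0.20). *MANF* (chr3:51385291-51389397), a secreted and ER-retained trophic factor that binds BiP, was at 74.3, 77.9 and 70.8 CPM with DMSO and 45.1, 45.9 and 47.2 CPM with NXP800 at 6 h, and at 62.2, 70.5 and 104 and 50.7, 52.2 and 58.2 CPM at 24 h. DMSO 24 h replicate 3 was the highest of its group, and the groups were apart at both times. It fell by 0.69 ± 0.13 and 0.55 ± 0.13 (adjusted p = 0.000325 and 0.00175), and the 24 h value was -0.31 without that library. *CRELD2* (chr22:49918634-49927537), a UPR-induced protein with isomerase-like motifs, was at 48.1, 51.1 and 45.05 CPM with DMSO and 31.3, 31.6 and 28.6 CPM with NXP800 at 6 h, and at 52.8, 54.7 and 64.2 and 44.9, 40.8 and 46.1 CPM at 24 h. Again the groups did not overlap, and it fell by 0.66 ± 0.083 and 0.38 ± 0.082 (adjusted p = 6.82e-06 and 0.000886). The remaining chaperones passed at neither time. *DNAJB11* was at -0.067 and -0.048, *UGGT1*, the folding sensor that reglucosylates glycoproteins, at -0.13 and -0.13 (adjusted p = 0.0451 and 0.0373 with the block), and *CRELD1* at 0.053 and 0.51 with levels of 2.27 to 6.00 CPM (adjusted p = 0.0503 at 24 h, and 0.00427 with the block).

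With *HSPA5* rising and *CALR* and *HSP90B1* falling, the make-up of the summed chaperone counts changed. The summed level of the 15 genes was 5089 ± 253 CPM (SD, n = 3) with DMSO and 4838 ± 302 CPM with NXP800 at 6 h, and 5693 ± 712 CPM and 6422 ± 49.1 CPM at 24 h. *HSPA5* made up 12.03 to 13.09% of that sum in the DMSO libraries and 20.2 to 21.7% in the NXP800 libraries at 6 h, and 13.5 to 16.1% and 23.9 to 29.1% at 24 h. The ratio of *HSPA5* to *HSP90B1* counts was 0.834 ± 0.0444 in DMSO and 1.57 ± 0.0558 in NXP800 at 6 h, and 1.23 ± 0.142 and 3.14 ± 0.384 at 24 h. These sums and ratios are of the same counts as the tests above and were not tested again. Sums here and below are not corrected for transcript length, so long transcripts weigh more. In DMSO at 6 h *CANX* was at 1732 CPM and *CALR* at 957 CPM, but at 125.8 and 341.5 CPM per kb of exon. At 24 h *HSPA5* went from 129 with DMSO to 268 CPM per kb with NXP800, and *CALR* from 411 to 195. A sum per kb can thus differ in direction from the sum in CPM.

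**Figure D3:**
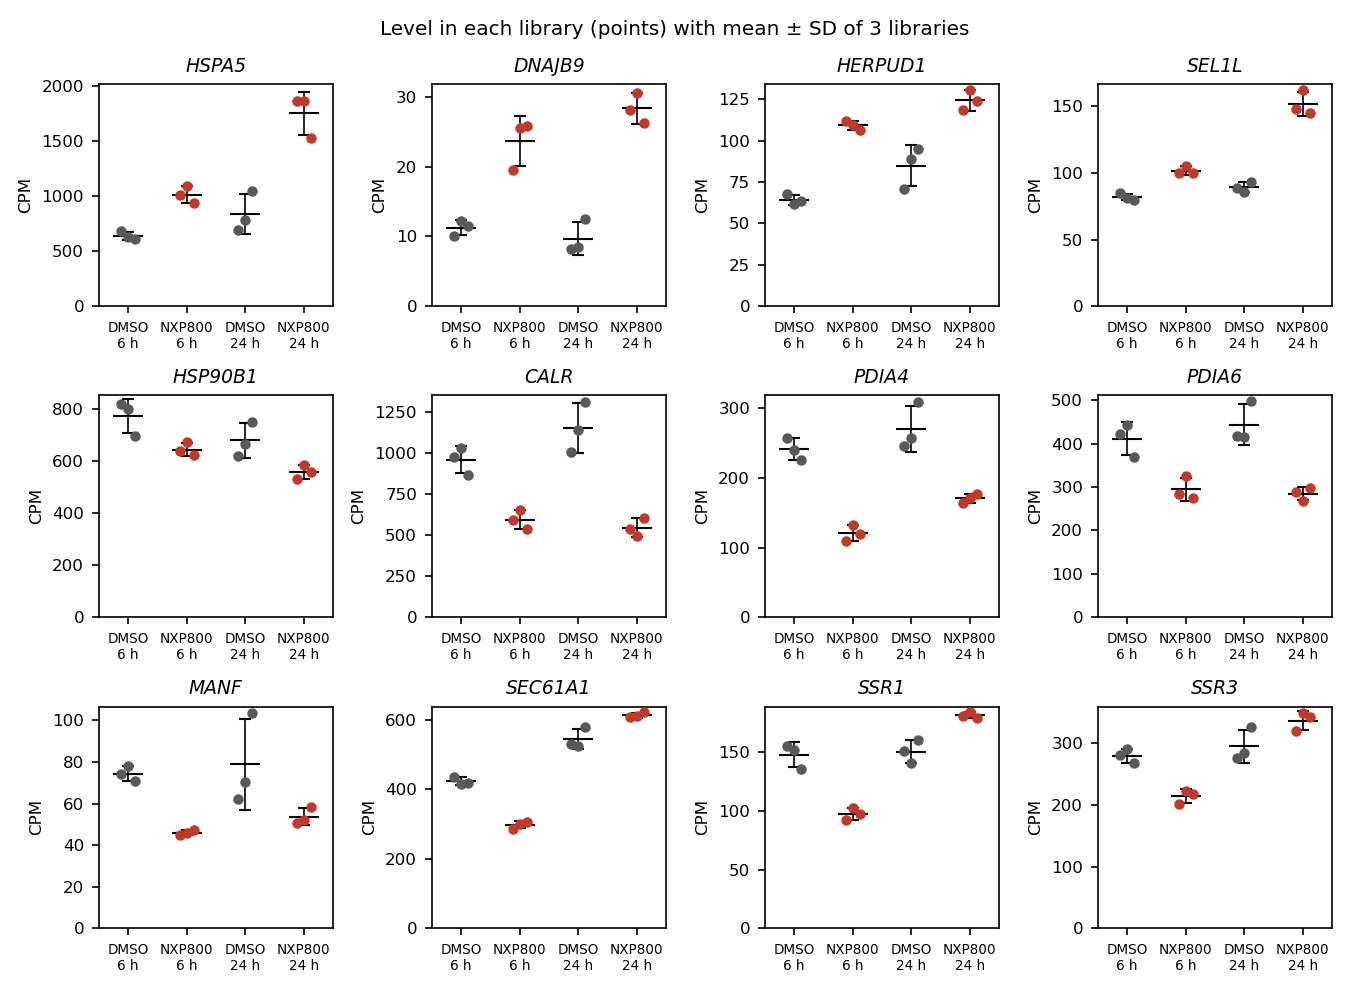
Level in CPM (y axis, from 0) of 12 genes in each of the 3 libraries of the 4 groups (x axis), with bars of the mean and SD; grey is DMSO and red NXP800. *HSPA5*, *DNAJB9*, *HERPUD1* and *SEL1L* lie above DMSO at both times, *CALR*, *PDIA4*, *PDIA6* and *MANF* below it, and *SEC61A1*, *SSR1* and *SSR3* below it at 6 h.

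The disulfide isomerases and oxidases fell more uniformly. At 6 h 8 of 11 fell and 0 rose (0 also at an unadjusted p below 0.05 and by DESeq2's Wald test), and at 24 h 6 fell and 1 rose, with medians of -0.39 and -0.20. Falls made up 72.7% at 6 h and 54.5% at 24 h, against 27.8% and 28.6% of all tested genes. Rises made up 0% and 9.09%, against 25.0% and 27.5%. Without DMSO 24 h replicate 3 the 24 h count of falls was 3, and 4248 of all 16344 tested genes fell. Their summed level was 2473 ± 161 CPM with DMSO and 1846 ± 108 CPM with NXP800 at 6 h, and 2643 ± 215 CPM and 2142 ± 91.2 CPM at 24 h. The largest fall at 6 h was that of *PDIA4* (chr7:149003051-149028505), which encodes ERp72, an isomerase with several thioredoxin-like domains. It was at 258, 240.5 and 226 CPM with DMSO and 110.0, 133 and 120.1 CPM with NXP800 at 6 h, and at 246, 258 and 309 and 164, 172 and 177 CPM at 24 h. No NXP800 library reached the lowest DMSO library of its time. The level went to 0.501 of DMSO at 6 h and 0.631 at 24 h, log2 values of -0.996 ± 0.088 and -0.66 ± 0.087 (adjusted p = 1.34e-07 and 7.69e-06). *PDIA6* (chr2:10783391-10837712), known to bind the sensor IRE1α and end its signalling, was at 422, 444 and 369.8 CPM with DMSO and 285, 326 and 276 CPM with NXP800 at 6 h, and at 419, 414 and 499 and 289, 268 and 297 CPM at 24 h. It too was apart at both times and fell by 0.48 ± 0.089 and 0.64 ± 0.089 (adjusted p = 0.000285 and 1.45e-05).

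Falls of the general isomerases were smaller. *P4HB*, which encodes PDI itself and is also the beta subunit of collagen prolyl 4-hydroxylase, fell by 0.40 ± 0.072 at the early and 0.20 ± 0.072 at the late time (adjusted p = 0.000196 and 0.0287). Its 24 h call was lost without DMSO replicate 3 (-0.15) or NXP800 replicate 2 (-0.12) of 24 h, with scaling by library size only (-0.11), with no filter on low counts (-0.18), with only the 24 h libraries (-0.18) and with the block plus offsets (-0.099), which also gave -0.24 at 6 h. *PDIA3*, the glycoprotein isomerase ERp57 that works with calreticulin and calnexin, fell by 0.34 ± 0.081 and 0.29 ± 0.081 (adjusted p = 0.00225 and 0.00697), the latter lost without DMSO 24 h replicate 3 (-0.20, adjusted p = 0.0517). *ERO1A*, the oxidase that recharges PDI, fell by 0.38 ± 0.062 and 0.39 ± 0.063 (adjusted p = 9.46e-05 and 5.38e-05). *TXNDC5* fell by 0.49 ± 0.15 and 0.46 ± 0.14 at levels of 3.56 to 12.4 CPM (adjusted p = 0.0133 and 0.0115). It lost the 6 h call without DMSO replicate 2 (-0.35) or NXP800 replicate 1 (-0.44) of 6 h and the 24 h call without DMSO 24 h replicate 3 (-0.32), and 61.1% of its exon bases overlap other genes, so its counts are uncertain. The second oxidase gene *ERO1B* was at 2.36 to 4.89 CPM with log2 fold changes of -0.025 ± 0.16 and -0.12 ± 0.17. *ERP29* and *ERP44*, which retrieves oxidases and unassembled proteins to the ER, were between -0.10 and 0.08 at both times, and none of these 3 passed the test.

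A pair of this group behaved differently with time. *PDIA5* (chr3:123067025-123162104), known as a regulator of ATF6 activation, was at 11.6, 12.8 and 10.6 CPM with DMSO and 8.07, 8.60 and 9.27 CPM with NXP800 at 6 h, and at 10.4, 12.3 and 11.5 and 10.9, 13.7 and 12.4 CPM at 24 h. It was below DMSO in every NXP800 library at 6 h, falling by 0.43 ± 0.11 (adjusted p = 0.00416), and overlapped DMSO at 24 h (0.11 ± 0.11, adjusted p = 0.405). *TXNDC11* (chr16:11679083-11742857), a membrane-bound thioredoxin-like protein linked to ERAD, was at 24.8, 25.6 and 25.2 CPM with DMSO and 18.02, 19.98 and 19.7 CPM with NXP800 at 6 h, and at 25.6, 28.8 and 29.9 and 31.7, 37.6 and 33.1 CPM at 24 h. Its groups were apart in opposite order at the 2 times, with a fall of 0.39 ± 0.084 at 6 h and a rise of 0.28 ± 0.082 at 24 h (adjusted p = 0.000992 and 0.00778).

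In ERAD, 3 of 11 genes rose and 1 fell at 6 h, and 3 rose and 0 fell at 24 h, where 1 fell at an unadjusted p below 0.05 and 0 by DESeq2's Wald test. The 27.3% of ERAD genes that rose at each time lie near the shares of all tested genes, 25.0% and 27.5%. Falls made up 9.09% and 0%, against 27.8% and 28.6%. At 24 h 5 rose with scaling by library size only and 6 with the block plus offsets. Rises among all 15979 tested genes also increased there, to 5327 and 5260 from 4387. The medians were -0.02 and 0.07 (0.15 at 24 h without NXP800 24 h replicate 2), and the summed level was 667 ± 11.6 CPM with DMSO and 746 ± 14.1 CPM with NXP800 at 6 h, and 720.2 ± 20.8 CPM and 860.4 ± 43.7 CPM at 24 h. *HERPUD1* (chr16:56932142-56944864) encodes HERP, a membrane protein that gathers the HRD1 ubiquitin ligase complex and is strongly induced by ER stress. It was at 67.6, 61.9 and 63.3 CPM with DMSO and 112, 109 and 107 CPM with NXP800 at 6 h, and at 70.8, 88.7 and 95.04 and 118, 130.4 and 124 CPM at 24 h. All NXP800 libraries were higher, by 0.77 ± 0.086 at 6 h and 0.55 ± 0.085 at 24 h on the log2 scale (adjusted p = 1.75e-06 and 4.21e-05). *SEL1L* (chr14:81471547-81533853), the adaptor that stabilises HRD1, was at 84.6, 81.5 and 79.7 CPM with DMSO and 99.7, 106 and 99.7 CPM with NXP800 at 6 h, and at 88.6, 85.8 and 93.5 and 148, 162 and 145 CPM at 24 h. It was also higher in every NXP800 library and rose by 0.31 ± 0.061 and 0.76 ± 0.061 (adjusted p = 0.000472 and 3.16e-08). *SYVN1*, which encodes the ligase HRD1 itself, did not pass, at -0.064 ± 0.093 and 0.057 ± 0.092.

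The mannosidase-like EDEM genes, whose products mark glycoproteins for ERAD, did not move together. *EDEM1* was at 0.30 ± 0.13 at 6 h (adjusted p = 0.0597, and 0.000347 with the block) and rose by 0.45 ± 0.13 at 24 h (adjusted p = 0.00627), where NXP800 replicate 2 was highest at 134 CPM against 83.4 and 96.1 (0.26 without it). *EDEM3* fell by 0.28 ± 0.082 at 6 h (adjusted p = 0.00888), lost without NXP800 6 h replicate 1 (-0.21, adjusted p = 0.0587) and -0.43 with the block plus offsets, and was at -0.18 ± 0.083 at 24 h (adjusted p = 0.0701, and 0.0129 with the block). *EDEM2* had 2 to 22 counts per library in a locus shared with a read-through transcript, and its values of -0.13 ± 0.64 and 0.46 ± 0.40 show no direction at this depth. Of the derlins, membrane proteins that act in retrotranslocation, *DERL1* rose by 0.19 ± 0.059 at 6 h (adjusted p = 0.0142), a call lost without DMSO replicate 2 or 3 or NXP800 replicate 1 or 3 of 6 h (each 0.17) or with no filter on low counts (0.19, adjusted p = 0.0504), and was at 0.017 at 24 h. *DERL2* was at 0.064 and 0.14 (adjusted p = 0.0511 at 24 h, and 0.0216 with the block). *DERL3*, with 9 to 33 counts per library and 77.0% of its exon bases overlapping *SMARCB1*, was at -0.38 ± 0.29 and -0.60 ± 0.34. The lectins *OS9* and *ERLEC1*, which pass glycoproteins to SEL1L, were between -0.15 and 0.07 and did not pass, with an adjusted p of 0.0416 for *ERLEC1* at 6 h with the block.

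Among the translocation genes, *SEC61A1*, *SSR1* and *SSR3* fell at 6 h and rose at 24 h, while *SEC61G*, *SEC63* and *SEC24D* rose at 24 h without passing at 6 h, *SEC61B* fell at 6 h without passing at 24 h, and *SSR2* fell at both times. At 6 h 5 of 9 fell and 0 rose (0 also at an unadjusted p below 0.05 and by DESeq2's Wald test), and at 24 h 6 rose and 1 fell, with medians of -0.27 and 0.19. Falls made up 55.6% at 6 h and 11.1% at 24 h, against 27.8% and 28.6% of all tested genes. Rises made up 0% and 66.7%, against 25.0% and 27.5%. The summed level of the 9 genes went from 1428 ± 50.7 CPM in DMSO to 1150 ± 34.0 CPM in NXP800 at 6 h, and from 1605 ± 91.9 CPM to 1805 ± 17.8 CPM at 24 h. *SEC61A1* (chr3:128051641-128071683), the pore-forming subunit of the SEC61 channel, was at 435, 414 and 419 CPM with DMSO and 286, 300.1 and 305 CPM with NXP800 at 6 h, and at 531, 523 and 578 and 606, 609.7 and 621 CPM at 24 h. It was below DMSO in all libraries at 6 h and above it in all at 24 h, a fall of 0.51 ± 0.060 and a rise of 0.17 ± 0.060 (adjusted p = 3.32e-06 and 0.023). The rise was lost without DMSO replicate 1 (0.15), DMSO replicate 2 (0.14) or NXP800 replicate 3 (0.16) of 24 h, and was 0.26 with scaling by library size only. *SEC61G* (chr7:54752253-54759211), the small gamma subunit, was at 89.8, 86.6 and 79.2 CPM with DMSO and 74.95, 75.6 and 77.8 CPM with NXP800 at 6 h, and at 75.7, 71.96 and 83.9 and 96.8, 104 and 113 CPM at 24 h. Its 6 h value of -0.16 ± 0.073 did not pass (adjusted p = 0.0732, and 0.0160 with the block), and at 24 h it rose by 0.44 ± 0.073 (adjusted p = 8.36e-05). The beta subunit gene *SEC61B* fell by 0.27 ± 0.066 at 6 h (adjusted p = 0.00256) and was at -0.052 ± 0.066 at 24 h.

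The translocon-associated protein (TRAP) complex, which helps certain chains into the channel, holds the gene product with the largest difference between times, that of *SSR1*. On the log2 scale, 24 h minus 6 h, *SSR1* was at 0.87 and *SSR3* at 0.58. *SSR2* was at 0.26 ± 0.10 and did not pass (adjusted p = 0.0818). *SSR1* (chr6:7281143-7313199), the alpha subunit of TRAP, was at 155, 152 and 136 CPM with DMSO and 92.5, 102 and 97.05 CPM with NXP800 at 6 h, and at 150.5, 140.3 and 160.2 and 181, 184 and 179 CPM at 24 h. NXP800 libraries were the lower ones at 6 h and the higher ones at 24 h without overlap, a fall of 0.60 ± 0.068 followed by a rise of 0.27 ± 0.067 (adjusted p = 1.75e-06 and 0.00261). *SSR3* (chr3:156539553-156555117), the gamma subunit, was at 279.6, 290.1 and 268 CPM with DMSO and 200.5, 223 and 218 CPM with NXP800 at 6 h, and at 275, 283 and 326 and 319, 348 and 342 CPM at 24 h, overlapping at 24 h. It fell by 0.39 ± 0.072 and rose by 0.19 ± 0.071 (adjusted p = 0.000283 and 0.0319). This rise was lost without DMSO replicate 1 (0.14), DMSO replicate 2 (0.16) or NXP800 replicate 3 (0.18) of 24 h. The beta subunit *SSR2* (chr1:156009048-156020951) was at 72.8, 79.6 and 63.5 CPM with DMSO and 51.7, 48.6 and 51.3 CPM with NXP800 at 6 h, and at 123, 127 and 127 and 108, 99.2 and 109.7 CPM at 24 h. It was lower in every NXP800 library and fell by 0.51 ± 0.075 and 0.25 ± 0.073 (adjusted p = 2.88e-05 and 0.00755), the latter lost without NXP800 24 h replicate 2 (-0.18, adjusted p = 0.0538) and -0.16 with scaling by library size only. *SEC24D* (chr4:118722823-118836126), a cargo-binding COPII subunit, was at 44.1, 43.6 and 48.03 CPM with DMSO and 46.2, 47.2 and 57.5 CPM with NXP800 at 6 h, and at 42.2, 41.3 and 42.9 and 66.7, 72.2 and 55.2 CPM at 24 h. Overlapping at 6 h (0.15 ± 0.097), it was apart at 24 h and rose by 0.62 ± 0.097 (adjusted p = 4.72e-05). *SEC63*, which recruits BiP to the channel, rose by 0.30 ± 0.057 at 24 h (adjusted p = 0.000338) after 0.079 ± 0.057 at 6 h, while its partner *SEC62* was at -0.024 and -0.027 and did not pass.

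The difference between the responses, 24 h minus 6 h, was tested in the same model. It passed above 0 for 11 of the 46 genes, against 12% of all tested genes, and below 0 for 0, against 13.8%. At an unadjusted p below 0.05 there were 21 above and 1 below, which was not counted over all genes. DESeq2's Wald test called 13 above and 1 below, and 1755 and 2270 of the 15554 genes it tested. With the replicate number as a block there were 22 above and 1 below: the 11 genes kept their calls, and *HSPA5* (0.42, adjusted p = 0.0350), *CANX*, *DNAJB9*, *SDF2L1*, *CRELD2*, *SIL1*, *PDIA4*, *P4HB*, *SEC61B*, *SEC63* and *SSR2* joined them (adjusted p from 0.00315 to 0.0393), as did *CALR* below 0 (-0.38, adjusted p = 0.000891). Scaling by library size only gave 21 above and 0 below, and it moved the split of all genes from 1924 above and 2205 below to 2463 and 1670. The block also called more of all tested genes, 2945 above and 3339 below. The 11 were *SSR1* (0.87 ± 0.095 on the log2 scale, adjusted p = 8.55e-06), *SEC61A1* (0.68 ± 0.085, 3.28e-05), *TXNDC11* (0.67 ± 0.12, 0.000603), *SEC61G* (0.60 ± 0.10, 0.000526) and *SSR3* (0.58 ± 0.10, 0.00063), then *PDIA5*, *DNAJC10*, *DNAJC3*, *SEC24D*, *SEL1L* and *HYOU1* at 0.54 to 0.39. *PDIA5* lost the call without DMSO replicate 2 (0.47) or NXP800 replicate 1 (0.49) of 6 h, and *SEC24D* without DMSO replicate 3 (0.42), NXP800 replicate 1 (0.41) or NXP800 replicate 2 (0.42) of 6 h. Without DMSO 24 h replicate 3 the count of the 46 genes was 18, and that of all 16344 tested genes 1700. Of all 46 differences, called or not, 37 were above 0 (80.4%, against 49.8% of all tested genes). *HERPUD1* was one of the 9 below 0, at -0.22 ± 0.12 (adjusted p = 0.205), and libraries of the 2 times differed in the shares of unassigned reads given above.

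**Figure D4:**
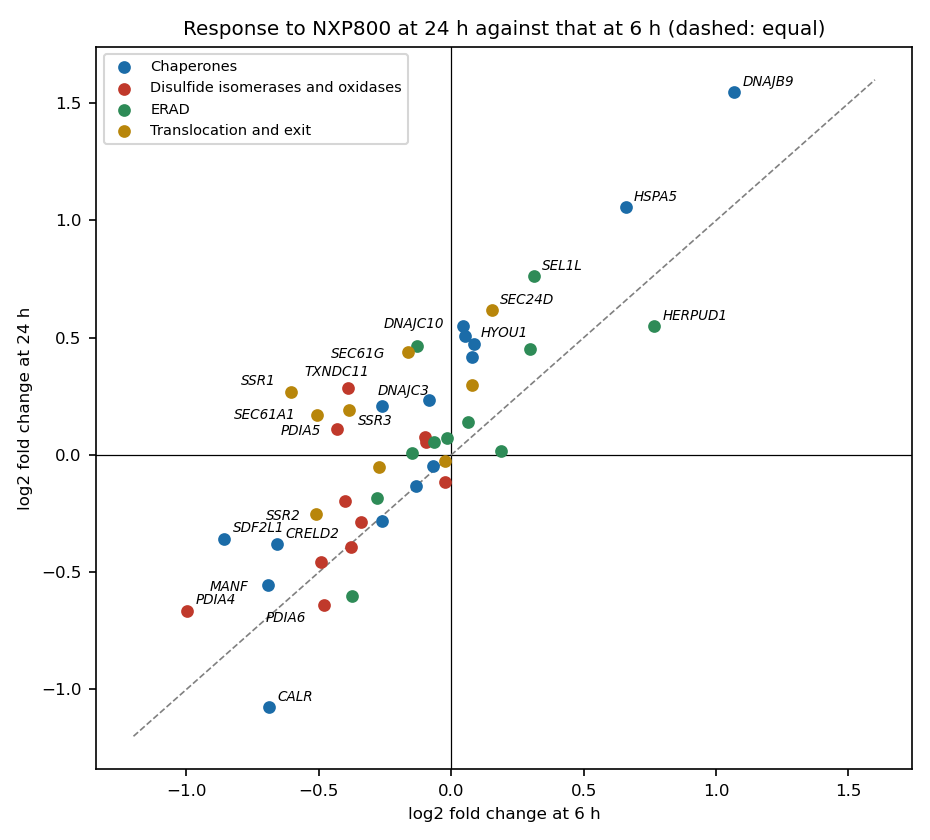
Log2 fold change at 24 h (y axis) against that at 6 h (x axis) of the 46 genes, coloured by function; the dashed line marks equal responses, and names are given where a change of at least 0.5 or the difference passed the test. Most points (37 of 46) lie above the line, with *SSR1* farthest from it and *CALR* and *HERPUD1* below it.

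Outside the 46, 111 other genes of the same pathways were listed and 109 tested. At 6 h 19 rose and 57 fell with a median of -0.20, and at 24 h 25 rose and 42 fell with a median of -0.13. As shares these were 17.4% and 52.3% at 6 h and 22.9% and 38.5% at 24 h, against 25.0% and 27.8%, then 27.5% and 28.6%, of all tested genes. Of 28 tested ER folding factors outside the list, such as peptidyl-prolyl isomerases and KDEL receptors, 3 rose and 23 fell at 6 h, and 5 rose and 14 fell at 24 h. Other thiol oxidoreductases gave 2 and 6 of 13 at 6 h and 2 and 5 at 24 h, other ERAD genes 6 and 9 of 21, then 4 and 10, the other translocation, signal peptidase and oligosaccharyltransferase genes 1 and 16 of 29, then 6 and 11, and the other COPII genes 2 and 3 of 9, then 2 and 2. Some of these shares lie near those of all tested genes, such as the 28.6% of other ERAD genes and the 22.2% of other COPII genes that rose at 6 h. The largest falls at 6 h were those of *KDELR3* (-1.63 ± 0.15), which returns escaped ER proteins, *CNPY4* (-1.36 ± 0.19) and the prolyl isomerase *FKBP7* (-1.18 ± 0.17). At 24 h they were those of *TXNDC16* (-1.36 ± 0.15), *FKBP7* (-1.18 ± 0.17) and the HRD1 cofactor *FAM8A1* (-1.09 ± 0.085).

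Of the 9 genes of the UPR sensors and factors, 5 rose and 0 fell at 6 h, and 6 rose and 0 fell at 24 h, with 0 falls also at an unadjusted p below 0.05 and by DESeq2's Wald test. Rises made up 55.6% at 6 h and 66.7% at 24 h, against 25.0% and 27.5% of all tested genes. Falls made up 0% at both times, against 27.8% and 28.6%. *ERN1*, which encodes IRE1α, rose by 2.61 ± 0.10 and 1.63 ± 0.10, and its target *XBP1* by 2.04 ± 0.090 and 1.83 ± 0.089. *DDIT3*, the stress factor CHOP, had the largest rise at both times, 3.05 ± 0.12 and 3.01 ± 0.12. Other genes overlap 39.6% of its exon bases, so its counts are uncertain. *ATF6* rose by 0.86 ± 0.071 and 0.63 ± 0.071 and *ATF4* by 0.66 ± 0.073 and 0.51 ± 0.073. *EIF2AK3*, the PERK gene, was at -0.038 ± 0.088 at 6 h and rose by 0.41 ± 0.087 at 24 h, and *ATF6B* and the ATF6 proteases *MBTPS1* and *MBTPS2* were between -0.12 and 0.10 and did not pass. Counts per gene do not show splicing of *XBP1* or cleavage of ATF6. In the same libraries that held more *XBP1* and *ATF6* transcript, *HSPA5*, *DNAJB9*, *HERPUD1* and *SEL1L* were higher at both times. Among the genes lower at both times were *CALR*, *PDIA4*, *PDIA6*, *MANF* and *CRELD2*. The part of *XBP1* and *ATF6* in these changes was not tested.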

How the data were processed

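The authors trimmed read pairs with fastp 0.20.1, aligned them to hg38 with STAR 2.7.5a and used HTSeq 0.12.4 to count RefSeq genes (GRCh38.p14) (versions per the submitters' processing notes). The deposited values are raw read counts per gene without normalization. The kit was strand-specific, but the strand and overlap settings of the counting are not given in the sources used here, so overlapping genes are uncertain. Besides those named above, other genes overlap 41.5% of the exon bases of *CRELD1*, 25.2% of *PDIA6*, 23.9% of *OS9* and 20.8% of *SSR3*. Entries that name no gene were left out. In R 4.3.3, edgeR 4.0.16 filtered genes (filterByExpr), scaled by TMM and fitted its quasi-likelihood test in 1 model of the 4 groups, with contrasts at 6 h, at 24 h and of their difference. DESeq2 1.42.0 and other settings were alternatives. The 46 genes and all lists were chosen with earlier results of these data known. Values in every library are given for genes called with a log2 fold change of at least 0.5 or with a called difference, and other pathway genes are the 3 largest called rises and falls at each time, with all UPR sensors and factors. Same-numbered libraries deviated together (r 0.159 to 0.329, against at most 0.058 otherwise, across genes, which are not independent replicates), so a replicate block was fitted, although only the label numbers give the pairing. Deviations from a group mean cancel out within the group, so positive correlations of same-numbered libraries push the others down. The 2 ranges are therefore not independent. The procedure was tested on simulated data. GC content and length (GENCODE transcripts) were known for 91.6% of tested genes. Replicates differed by more than sampling noise, so none was counted as a duplicate. Promoters came from RefSeq. Protein sequences were not used here.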

Additional observations from a re-analysis of the deposited data

Results flagged for a closer look

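For 11 genes the response to NXP800 at 24 h differed from that at 6 h in edgeR's test of the difference, in each case towards higher levels at 24 h. On the log2 scale the differences were 0.87 for *SSR1*, 0.68 for *SEC61A1*, 0.67 for *TXNDC11*, 0.6 for *SEC61G*, 0.58 for *SSR3*, 0.54 for *PDIA5*, 0.51 for *DNAJC10*, 0.47 for *DNAJC3*, 0.46 for *SEC24D*, 0.45 for *SEL1L* and 0.39 for *HYOU1*. Of these, 5 encode channel, TRAP or vesicle coat subunits, 3 chaperones, 2 disulfide isomerase family members and 1 an ERAD adaptor. As shares of their groups these were 55.6% of 9, 20% of 15, 18.2% of 11 and 9.09% of 11, against 12% of all tested genes. The ERAD share thus lies near that of all genes. All 11 kept the call with the replicate number as a block. The 6 h and 24 h libraries also differed in the share of reads on no annotated gene, and its part in these differences was not tested. With 3 libraries a group, single libraries were not screened for outlying values.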

How the results depend on the processing

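No gene called among the 46 changed direction under any alternative at 6 h, at 24 h or in the difference, and the calls lost at an adjusted p of 0.05 are given beside each gene above. At an adjusted p below 0.01, 4 rose and 17 fell at 6 h, 13 rose and 9 fell at 24 h, and 8 differences were called above 0. Of all 15979 tested genes, 3171 rose and 3311 fell at 6 h and 3370 rose and 3684 fell at 24 h. Differences above 0 numbered 946 over all genes. With the replicate number as a block no call was lost, and all calls that it changed are given above. Genes that rose at 6 h numbered 8 with the block plus GC and length offsets, against 5. Differences above 0 numbered 21 with library size only, 17 without a filter on low counts, 22 with the block and 23 with the block plus offsets, against 11. Over all genes tested in each setting they numbered 2463, 2055, 2945 and 2967, against 1924. Differences below 0 numbered 1 without a filter, 1 with the block, 2 with the block plus offsets and 1 by DESeq2's Wald test, against 0. Over all genes they numbered 2171, 3339, 3503 and 2270, against 2205. When libraries were left out in turn, differences of the 46 genes ran from 9 to 18 above 0 and from 0 to 2 below. Over all genes they ran from 1419 to 1862 above and from 1781 to 2292 below. Library size only gave medians of 0.16 for all 46 genes and 0.16 for ERAD at 24 h. It also moved the median of all tested genes at 24 h, to 0.086 from -0.003. The block plus offsets gave -0.19 for chaperones and 0.090 for ERAD at 6 h, with -0.021 for all tested genes. The ERAD median at 6 h was also 0.064 with at least 10 counts in every library and 0.056 with only the 6 h libraries, and -0.033 to 0.087 when libraries were left out, so its sign changed. Reversals were limited to genes that did not pass at the time in question. With the block plus offsets, *DNAJC10* (-0.15), *SYVN1* (0.090), *OS9* (0.094) and *SEC63* (-0.037) changed sign at 6 h, and *ERP44* (-0.026), *DERL1* (-0.032) and *ERLEC1* (-0.043) at 24 h. *DNAJC10* then passed at 6 h (adjusted p = 0.00987), as did the other genes named above, and *CRELD1*, *SYVN1*, *DERL2* and *OS9* rose and *UGGT1* and *EDEM3* fell at 24 h (adjusted p from 2.63e-05 to 0.0362). *EDEM1* at 6 h and *DNAJC3*, *CRELD1* and *DERL2* at 24 h passed with DESeq2 size factors (adjusted p = 0.0414, 0.0409, 0.0457 and 0.0419). With only the 6 h libraries, *ERO1B* (0.0080), *OS9* (0.015) and *SEC62* (0.0093) changed sign. With library size only, *DNAJB11* (0.043), *SEC61B* (0.039) and *SEC62* (0.064) did so at 24 h. Left-out libraries gave at 6 h -0.017 to 0.12 for *DNAJC10*, -0.056 to 0.23 for *CRELD1*, -0.079 to 0.057 for *ERO1B*, -0.89 to 0.21 for *EDEM2*, -0.052 to 0.013 for *OS9* and -0.10 to 0.044 for *SEC62*. At 24 h they gave -0.12 to 0.052 for *DNAJB11*, -0.24 to 0.030 for *ERO1B*, -0.037 to 0.15 for *ERP29*, -0.031 to 0.11 for *SYVN1*, -0.020 to 0.059 for *DERL1*, -0.076 to 0.079 for *ERLEC1*, -0.10 to 0.014 for *SEC61B* and -0.079 to 0.040 for *SEC62*. The cause of these changes was not tested. At 2 to 33 counts per library, changes of *EDEM2* and *DERL3* are not resolved, while for abundant genes the spread between 3 libraries sets the limit.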
